A study of Homo sapiens with 8 samples.

Results

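Selenoproteins carry selenocysteine, the selenium analogue of cysteine, usually at the active site of an enzyme that moves electrons. Selenocysteine is written as UGA, which elsewhere is a stop codon, so a ribosome must read this codon through instead of releasing its chain. The instruction is a hairpin in the untranslated region behind the stop codon (the SECIS element). The SECIS-binding protein SECISBP2 holds it and recruits EEFSEC, the elongation factor that carries selenocysteyl-tRNA. The tRNA is charged with serine, phosphorylated by PSTK and converted by SEPSECS with selenophosphate that SEPHS2 makes. SEPHS2 is itself a selenoprotein. SEPHS1 is its relative without selenocysteine, and TRNAU1AP is a protein that associates with the tRNA.

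The genes described here are the 25 human selenoprotein genes and 6 factors of selenocysteine synthesis and decoding that lack selenocysteine, chosen by name. All 31 were matched by gene ID among the 20719 genes counted. Their ribosome footprints were measured in G401, an established cell line from a rhabdoid tumor of the kidney that lacks SMARCB1, a subunit of the mSWI/SNF chromatin remodeling complex. There were 4 groups of 2 libraries. Cells carrying a doxycycline-inducible (Tet-On) SMARCB1 received 0.1 µg/ml doxycycline (SMARCB1 Dox) or DMSO (SMARCB1 DMSO) for 12 h, and cells carrying inducible GFP received the same (GFP Dox, GFP DMSO). Several plates of a condition were pooled for each library, and the experiment was done in duplicate. Whether either line is a single clone is not given in the sources used here. RNA-seq was not analysed here, so a difference in mRNA amount and a difference in ribosomes per mRNA cannot be told apart.

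Libraries held 5924443 to 14000039 counts on genes. SMARCB1 was counted 2553 and 1750 times in SMARCB1 Dox and 0 times in the 6 libraries of the other groups, as the labels say. Vimentin (VIM), a mesenchymal marker, had at least 7325 counts in every library. PTPRC, CD3E, PAX8 and ALB, markers of immune, renal epithelial and liver cells, had 0 counts, and PECAM1, VWF, EPCAM, CDH1 and HBB had at most 11 in any library. GFP Dox replicate 1 stood apart: 56.4% of its entries were reads with more than 1 alignment, against 25.6% to 39.7% in the other 7 libraries, and these reads were not counted.

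The sequences around the recoded codon show what the ribosome has to pass in the genes on which the results turn. Each is read 5′ to 3′ from the GENCODE 44 transcript on GRCh38, and the capitals mark the selenocysteine codon (TGA in DNA letters). The glutathione peroxidases are shown first because GPX3 was the only member that passed the test in the fit of all 8 libraries without a replicate block and GPX1 had no counts at all.

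GPX1: gtggcgtccctcTGAggcaccacggtccgg
GPX2: gtggcttcgctcTGAggcacaaccacccgg
GPX3: gtggccagctacTGAggcctgacgggccag
GPX4: gtggcctcccagTGAggcaagaccgaagta
GPX6: gtggccgcctatTGAggcttggcagctcag

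These 5 peroxidases share the opening gtggc and the triplet ggc after the codon. The GPX3 codon, residue 73 of 226, lies at chr5:151025469-151025471 on the plus strand in exon 2 of the transcript. The GPX4 codon, residue 73 of 197, lies at chr19:1105403-1105405 on the plus strand in exon 3. The GPX1 codon, residue 49 of 203, lies at chr3:49358132-49358134 on the minus strand in exon 1.

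The thioredoxin reductases and SELENOS have the codon at the other end of the protein, 1 codon before the last. They are shown because TXNRD1 was the most occupied of the genes. In addition, TXNRD1 and SELENOS were the members whose groups separated in all 4 pairwise comparisons, in counts scaled to the library's total alone. How many genes of the whole table separated in all 4 was not computed. Divided also by edgeR's TMM factors for composition, the groups overlap for SELENOS in GFP Dox against GFP DMSO and between the lines under Dox. Neither TXNRD1 nor SELENOS passed the test without a replicate block.

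TXNRD1: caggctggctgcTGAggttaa
TXNRD2: gtgacaggctgcTGAgggtaa
TXNRD3: cagaaaggctgcTGAggctag
SELENOS: tcatctggcggaTGAggctaa

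All 3 reductases read ggctgc before the codon and end 1 codon later. The TXNRD1 codon is residue 648 of 649 at chr12:104348413-104348415, plus strand, and that of SELENOS is residue 188 of 189 at chr15:101272777-101272779, minus strand. SEPHS2 and SELENOW have it near the start, as residue 60 of 448 (chr16:30445548-30445550, minus strand) and residue 13 of 87 (chr19:47780732-47780734, plus strand).

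SEPHS2: ggcatgaagggcTGAggctgcaaggtcccg
SELENOW: tattgtggcgctTGAggctacaagtccaag

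Among the 25 selenoproteins, 22 have 1 selenocysteine codon, DIO2 and SELENON have 2 each and SELENOP has 10. In the 22, the base after TGA was G in 13, C in 5 (DIO1, DIO3, SELENOM, SELENOI and SELENOH), A in 3 (SELENOF, MSRB1 and SELENOV) and T in 1 (SELENOO). The codon lay within the last 10 codons in 7 genes, namely the 3 reductases, SELENOK, SELENOS, SELENOI and SELENOO, and earlier in 15. All 7 of the former had enough counts to be tested and 10 of the 15 latter. The deposited values are totals per gene and mix footprints before and after the UGA, so reading through the codon itself was not measured. In the 7 genes with a late codon, nearly all of the coding sequence lies before it.

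**Figure D1:**
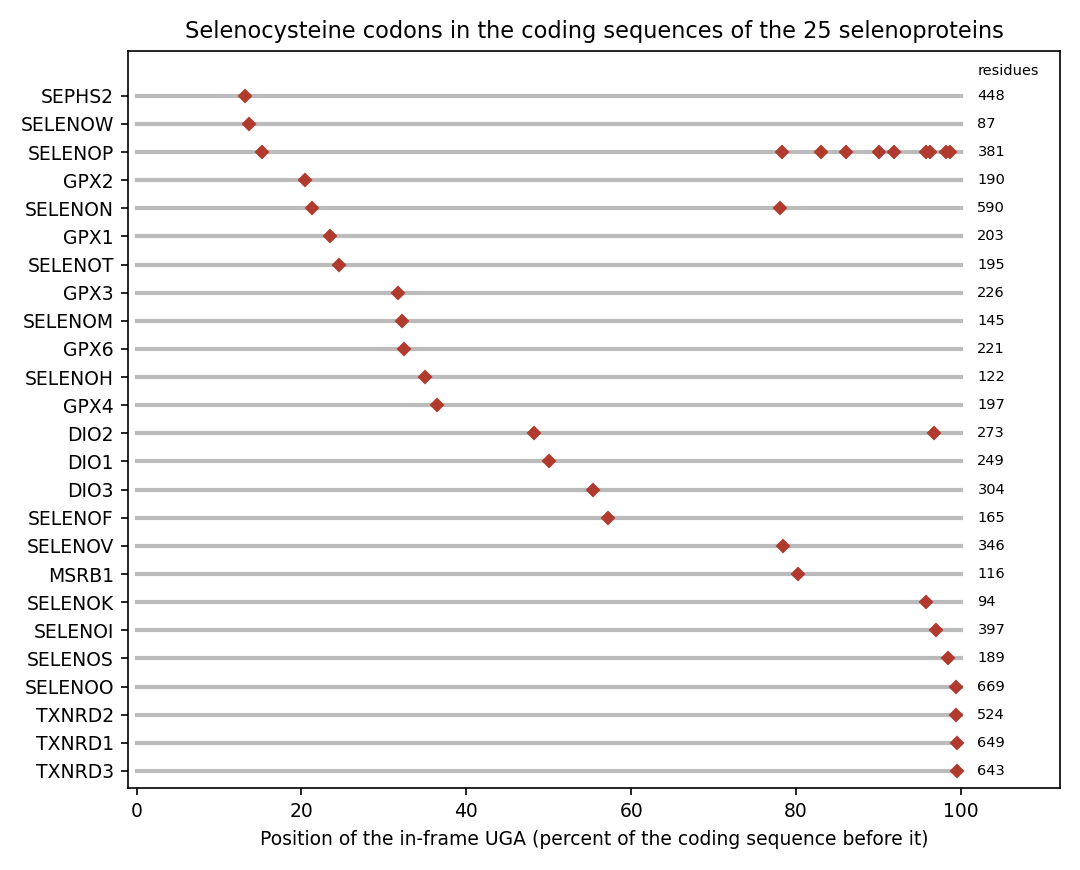
Position of each in-frame UGA (diamonds) in the 25 selenoproteins, as the percent of the coding sequence before it, with the protein length in residues at the right. In SEPHS2 13.1% of the coding sequence lies before the codon, and in TXNRD1 99.5% does.

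Of the 31 genes, 26 had at least 1 count and 24 passed the filter on low counts. Levels below are CPM, counts scaled to the library's total on genes, divided by the length in kilobases of all annotated coding bases where genes are compared with each other, and given as mean ± SD over the 8 libraries. TXNRD1, the cytosolic reductase of thioredoxin, stood first at 496 ± 50.9 CPM per kilobase, in the 98.2 percentile of genes with counts. At these lengths its range of 403 to 534 lay above that of every other member. SELENOF, a protein of the endoplasmic reticulum (ER) that binds the glycoprotein folding sensor, followed at 266 ± 32.5. GPX4, which reduces lipid hydroperoxides in membranes, had 213 ± 62.1, and the ranges of SELENOF and GPX4 overlapped (224 to 313 and 138 to 299). The length used was 1076 bases for GPX4, whose protein has 197 residues, and 602 bases for SELENOF, with 165 residues. The level of GPX4 beside SELENOF and TXNRD1 therefore depends on the length chosen. With the longest coding sequence the means were 300 for GPX4, 324 for SELENOF and 607 for TXNRD1. Levels at the lengths of the transcripts shown above were not computed.

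SELENOH, a nucleolar selenoprotein, had 88.5 ± 33.7 CPM per kilobase and SELENOS, an ER membrane protein of the degradation machinery, 76.8 ± 22.3, with overlapping ranges. From SELENOT, an ER redox protein at 40.9 ± 6.05, down to SELENOO, a mitochondrial pseudokinase at 4.88 ± 1.82, each gene's range overlapped that of its neighbour in the order. This run held SEPHS2 at 35.4, SELENON at 33.4, SELENOK at 33.1, TRNAU1AP at 29.8, SELENOW at 29.6, SELENOM at 27.6 and SELENOI at 22.8 CPM per kilobase. Below them came TXNRD3 at 17.2, SEPHS1 at 15.7, MSRB1 at 12.2, TXNRD2 at 10.8, SECISBP2 at 9.93, GPX3 at 9.9, SEPSECS at 8.2 and EEFSEC at 6.29. The mean of GPX3 is its level in neither line: it had 0 and 0.371 CPM per kilobase in SMARCB1 DMSO and SMARCB1 Dox, and 22.1 and 17.1 in GFP DMSO and GFP Dox. SELENOV and PSTK were near the limit, at 0.572 ± 0.507 and 0.549 ± 0.344 CPM per kilobase.

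The 7 synthesis and decoding factors, SEPHS2 among them, lay between 0.549 and 35.4 CPM per kilobase, against 213 to 496 for the 3 most occupied selenoproteins. SEPHS2, TRNAU1AP, SEPHS1, SECISBP2, SEPSECS and EEFSEC lay within the run from SELENOT to SELENOO, and PSTK below it at 0.549. That run, from 40.9 down to 4.88 CPM per kilobase, also held many of the selenoproteins. The selenoproteins together took 0.159% to 0.215% of all counts on genes in a library. TXNRD1 alone made up 31.7% to 38% of their summed level per kilobase. The share of all counts was 0.214% and 0.215% in SMARCB1 Dox, 0.194% and 0.163% in SMARCB1 DMSO, 0.159% and 0.211% in GFP Dox, and 0.197% and 0.198% in GFP DMSO. The lowest share was in GFP Dox replicate 1, the library with the most reads of multiple alignment.

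**Figure D2:**
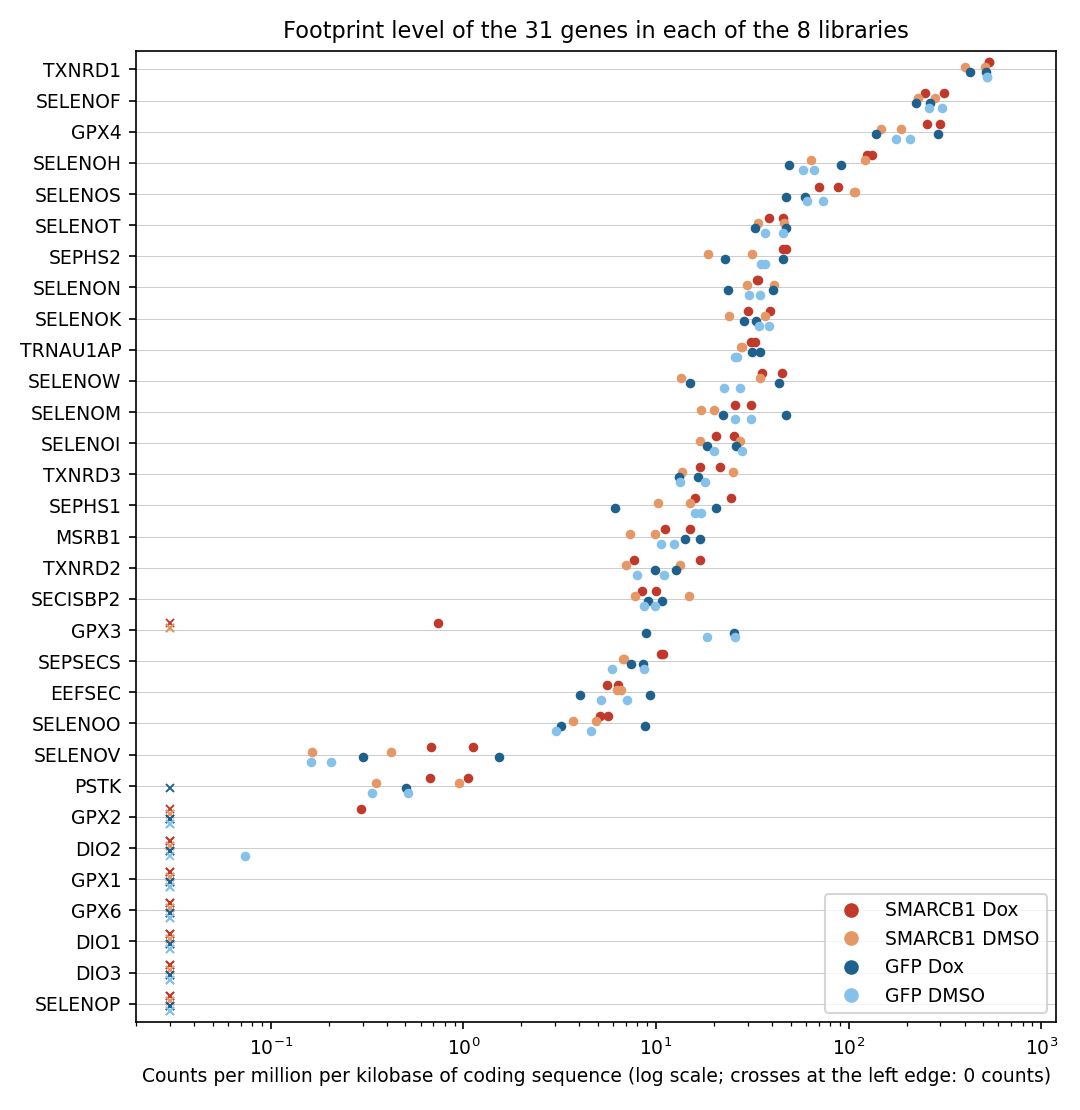
Level of each of the 31 genes in each of the 8 libraries, in CPM per kilobase of coding sequence on a log axis, with crosses at the left edge for 0 counts. TXNRD1 lies at 403 to 534 in all libraries, GPX3 is split between the lines, and 5 genes are at 0 throughout.

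The other 7 genes could not be tested. GPX1, GPX6, DIO1, DIO3 and SELENOP had 0 counts in all 8 libraries, GPX2 had 2 counts in SMARCB1 Dox replicate 1 only, and DIO2 1 count in GFP DMSO replicate 2 only. With 0 counted, up to 3 counts are allowed, which is 0.214 to 0.506 CPM per library, for counting error only. GPX2 is known from the gut epithelium, GPX6 from the olfactory epithelium, the deiodinases DIO1 to DIO3 activate or inactivate thyroid hormone, and SELENOP is the selenium carrier that the liver secretes. GPX1 is the peroxidase that most cells make.

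The 0 of GPX1 stood beside a property of its sequence. Of the 585 runs of 28 bases in its coding sequence, 361 (61.7%) also occur letter for letter elsewhere in GRCh38, on 2 other chromosomes, and 224 do not. Reads with more than 1 alignment were not counted. SEPHS1 had the same share, 711 of 1152 runs (61.7%), and 50 to 282 counts in a library. SELENOT had 55.3%, SELENOK 41.1% and SELENOW 16%, and these 3 genes were counted in every library. In addition, 25 coding bases of GPX1 are annotated to another gene as well in GENCODE 44. The part of these properties in the 0 of GPX1 was not tested. For SEPHS1, SELENOT, SELENOK and SELENOW the levels leave out footprints from shared stretches. Smaller shares were found for MSRB1 (8.33%), SELENON (4.12%) and SEPHS2 (3.56%), and 20 of the 31 genes had no shared run.

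Induction of SMARCB1 is the comparison for which the experiment was built. It was followed by no member passing the test: of the 24 tested, 0 passed edgeR's quasi-likelihood test at an adjusted p under 0.05, and DESeq2's Wald test called 0 as well. In the whole table edgeR called 2 of 11097 genes (0.018%), SMARCB1 and ASS1. An unadjusted p below 0.05 was found for 2 members, SEPHS2 and GPX4, and for 552 genes in all. The median log2 fold change of the 24 was 0.16, beside -0.02 over all genes tested, and 17 of the 24 lay above 0. Scaling by library size alone moved both medians up, to 0.28 and 0.09.

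SEPHS2, the selenophosphate synthetase, had 61.4 and 63.3 CPM in SMARCB1 Dox against 42.5 and 25.2 CPM with DMSO. The groups did not overlap, and the DMSO libraries lay further apart than the Dox libraries. Its log2 fold change was 0.80 (standard error, SE, 0.29, unadjusted p = 0.0166, adjusted p = 0.777 in edgeR's quasi-likelihood test). GPX4 had 275 and 321 CPM in SMARCB1 Dox against 202 and 160 CPM with DMSO, again without overlap. The log2 fold change was 0.62 (SE 0.27, adjusted p = 0.974 in edgeR's quasi-likelihood test).

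SELENOS lay in the opposite direction, with 66.9 and 53.6 CPM in SMARCB1 Dox below 82.7 and 81.3 CPM with DMSO. Its log2 fold change was -0.55 (SE 0.26, adjusted p = 1 in edgeR's test). SEPSECS, which completes selenocysteine on its tRNA, had 18.7 and 19.1 CPM in SMARCB1 Dox and 11.8 and 12 CPM with DMSO, a log2 fold change of 0.55 (SE 0.33, adjusted p = 1 in edgeR's test). GPX3 had 4 counts in SMARCB1 Dox replicate 2 and 0 in the other 3 libraries of that line, so its fitted log2 fold change of 4.23 (SE 2.31) rests on this library and was 0.00 without it. With each library left out in turn, SEPHS2 stayed between 0.50 and 1.14 and GPX4 between 0.51 and 0.74. None of these values passed the adjustment.

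In CPM, both SMARCB1 Dox libraries lay above both SMARCB1 DMSO libraries for 12 of the 24 members and below them for 1, SELENOS. The 12 were GPX4, MSRB1, SELENOH, SELENOM, SELENOO, SELENOV, SELENOW, SEPHS1, SEPHS2, SEPSECS, TRNAU1AP and TXNRD1. Over all 11097 genes tested, 23.9% lay above and 11.2% below in the same sense, so the lower side is less filled than the upper throughout the table. These CPM are not corrected for composition. The factors of edgeR's TMM scaling were 1.05 and 1.05 for SMARCB1 Dox and 1.01 and 0.937 for SMARCB1 DMSO. Divided by these factors, the groups overlap for SELENOH and SELENOO. For SELENOW, TRNAU1AP and TXNRD1 the nearest libraries of the groups then come close to equal.

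By role, the 7 ER-resident selenoproteins (SELENOF, SELENOK, SELENOM, SELENON, SELENOS, SELENOT and SELENOI) had a median log2 fold change of -0.01, between -0.55 and 0.49. The 3 thioredoxin reductases lay between -0.09 and 0.13, with TXNRD1 at 0.12 (SE 0.24). The 7 synthesis and decoding factors, SEPHS2 among them, had a median of 0.46, between -0.36 for SECISBP2 and 0.80 for SEPHS2. The 6 tested of the other selenoproteins (MSRB1, SELENOH, SELENOO, SELENOV, SELENOW and SEPHS2) all lay above 0, between 0.19 and 1.27, with a median of 0.58. Without SMARCB1 DMSO replicate 1, SELENOH was at -0.10 and SELENOO at -0.03. Dox in the GFP line also put 5 of these 6 above 0, with a median of 0.39. Their difference between the Dox effects of the lines had a median of 0.01, with 3 above and 3 below 0. For the 7 synthesis and decoding factors the median was 0.17 in the GFP line and 0.31 for the difference. No member of any of these groups was called.

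Doxycycline in the GFP line serves as the control for the drug. Here 0 of 24 members and 0 of 11097 genes (0%) were called by edgeR, and DESeq2 called 0 of either. Without GFP Dox replicate 2, edgeR called 148 genes and 0 members. No member and 240 genes had an unadjusted p below 0.05 in edgeR's fit. The median log2 fold change of the members was 0.11, beside 0.02 for all genes. Both GFP Dox libraries lay above both GFP DMSO libraries for MSRB1, SELENOV and TRNAU1AP (3 of 24, against 9.16% of all genes). They lay below for SELENOK, SELENOS and TXNRD1 (3 of 24, against 16.3%).

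SELENOV, known mainly from the testis, had 11 and 2 counts in GFP Dox and 2 and 3 in GFP DMSO. Its log2 fold change of 2.39 (SE 1.19) thus rests on very few footprints. TRNAU1AP had 30 and 27.1 CPM in GFP Dox and 22.8 and 22.2 CPM in GFP DMSO, a log2 fold change of 0.45 (SE 0.27). MSRB1, which reduces oxidized methionine, had 10.1 and 12.1 CPM against 7.58 and 8.86, at 0.52 (SE 0.37). SELENOO had 6.49 and 17.6 CPM against 6.08 and 9.21, at 0.69 (SE 0.42), and SELENOM 9.66 and 20.7 CPM against 13.5 and 11.2, at 0.35 (SE 0.36). Both were high in GFP Dox replicate 2 only, and without that library they were at -0.02 and -0.13. With each library left out in turn SELENOV ranged from 0.62 to 3.19, TRNAU1AP from 0.22 to 0.64 and MSRB1 from 0.42 to 0.62. The adjusted p was 1 for each of the 5 in edgeR's quasi-likelihood test.

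The difference between the Dox effects of the lines asks whether SMARCB1 adds to what the drug does. It was called for 0 of 24 members and for 0 of 11097 genes (0%) by edgeR, with 0 members and 443 genes at an unadjusted p below 0.05. DESeq2 called 0 members and 1 gene there, SMARCB1. Without GFP Dox replicate 2, edgeR called 105 genes and 0 members. The members' median was 0.03, beside -0.03 for all genes. Scaling by library size alone moved the median over all genes to 0.16 and that of the members to 0.23.

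SEPHS2 had the smallest p of the members. Its GFP libraries were at 30.6 and 61 CPM in Dox and 46.9 and 49.3 CPM in DMSO, so that the GFP Dox libraries enclosed the GFP DMSO ones, and its log2 difference between the lines was 0.81 (SE 0.41, adjusted p = 0.981 in edgeR's test). SEPHS1 was at 0.86 (SE 0.58), SECISBP2 at -0.55 (SE 0.43) and GPX4 at 0.42 (SE 0.39), with the same adjusted p of 0.981. These differences moved with single libraries. Without GFP Dox replicate 1 SEPHS2, SEPHS1 and GPX4 were at 0.50, 0.31 and 0.07, and without GFP Dox replicate 2 at 1.23, 1.79 and 0.88. SECISBP2 was at -0.09 without SMARCB1 DMSO replicate 1 and at -0.91 without replicate 2. GPX3, at 4.56 (SE 2.37), again rests on the 4 counts named above, and without SMARCB1 Dox replicate 2 it was at 0.33. For GPX4, GFP Dox replicate 1 had 148 CPM and replicate 2 313 CPM, a wider spread than in any other group.

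**Figure D3:**
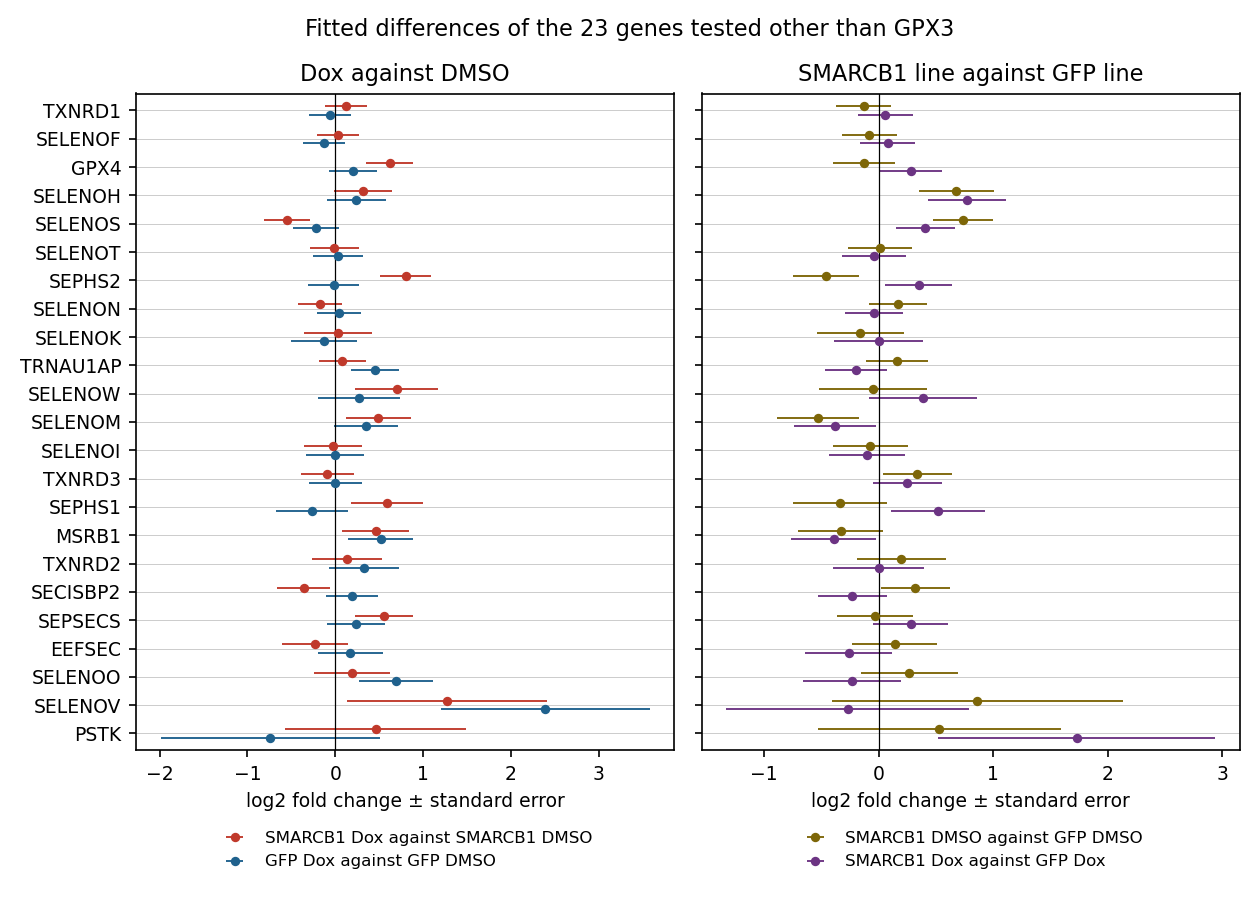
Log2 fold change and standard error of the 23 tested genes other than GPX3, for Dox against DMSO in each line (left) and for the SMARCB1 line against the GFP line under each treatment (right). SEPHS2 and GPX4 are at 0.80 and 0.62 in the SMARCB1 line, SELENOS is at -0.55, and none of the values shown passed the adjustment in this fit.

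The SMARCB1 line and the GFP line were then compared under the same treatment. The 2 comparisons share no library with each other, but each shares libraries with the Dox comparisons above and they share 1 estimate of the spread. Under DMSO, where neither line has SMARCB1 counts, edgeR called 587 of 11097 genes (5.29%), and 1 of 24 members. Under Dox it called 727 genes (6.55%), and again 1 member. These totals depended on single libraries. Under DMSO they were 378 without SMARCB1 DMSO replicate 2, and 324 and 299 without GFP DMSO replicate 1 and 2. Under Dox they were 348 and 379 without SMARCB1 Dox replicate 1 and 2, 578 without GFP Dox replicate 1 and 1661 without GFP Dox replicate 2, where 2 members were called instead of 1. With all libraries the member was GPX3 in both, and 1 call among 24 is near the share in the whole table. The members' medians were -0.01 under DMSO and 0.00 under Dox, beside 0.02 and -0.01 for all genes.

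GPX3 is the peroxidase that cells secrete, best known from plasma. It lies at chr5:151020591-151028988 on the plus strand of GRCh38. It had 277 and 232 counts in GFP DMSO and 55 and 147 in GFP Dox, which is 23.1 and 16.6 CPM and 7.93 and 22.9 CPM. In the SMARCB1 line it had 0, 0 and 0 counts in both DMSO libraries and Dox replicate 1, and 4 counts (0.666 CPM) in Dox replicate 2. All 4 GFP libraries thus lay above all 4 libraries of the SMARCB1 line.

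Under DMSO the pooled counts of GPX3 were 509 against 0, at least 128-fold higher in the GFP line when 3 counts are allowed over the group (adjusted p = 9.49e-05 in edgeR's quasi-likelihood test). Without SMARCB1 DMSO replicate 2, the deeper library of the pair, the bound was 38.7-fold, and without any 1 of the other 3 libraries it was 89.4-fold to 151-fold. Under Dox they were 202 against 4, or 65.8-fold higher in the GFP line (95% exact binomial interval 25.3 to 244, counting error only), with a fitted log2 fold change of -5.98 (SE 0.84, adjusted p = 0.000453 in edgeR's quasi-likelihood test). Without SMARCB1 Dox replicate 1 this ratio was 22.7, without GFP Dox replicate 1 it was 99.5, without GFP Dox replicate 2 it was 34.5, and without SMARCB1 Dox replicate 2 it was at least 57.5-fold. The adjusted p over these omissions lay between 0.00014 and 0.0098 under DMSO and between 3.44e-05 and 0.00662 under Dox. Only 1 of the 654 runs of 28 bases in the GPX3 coding sequence occurs elsewhere in the genome.

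GPX3 thus differed between the lines where both lacked SMARCB1 counts, and the Dox comparison in the GFP line gave it a log2 fold change of -0.33 (SE 0.53). GPX4, the other tested peroxidase, did not pass between the lines, at -0.13 (SE 0.27) under DMSO and 0.28 (SE 0.27) under Dox.

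**Figure D4:**
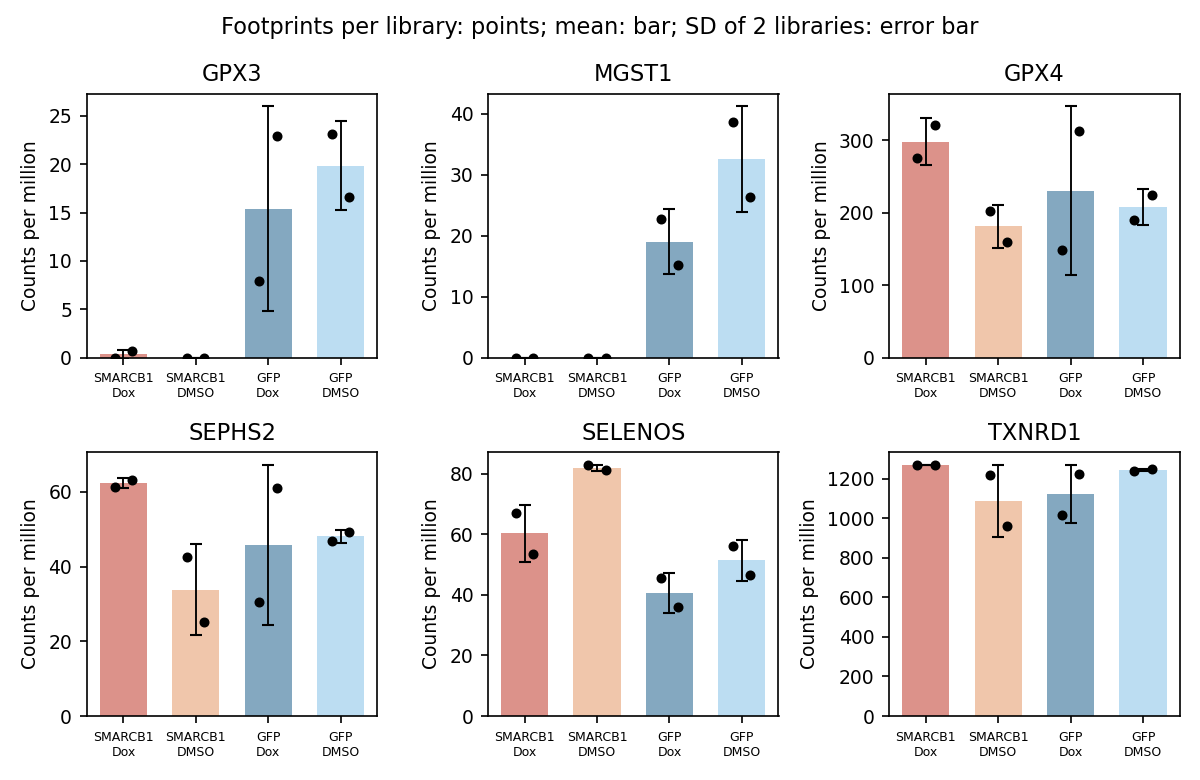
CPM of 6 genes in each library (points), with the mean (bar) and SD (error bar) of the 2 libraries of a group, on linear axes that start at 0. GPX3 and MGST1 are at 0 to 0.666 in the SMARCB1 line and at 7.93 to 38.7 in the GFP line.

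SELENOS came next. In DMSO it had 82.7 and 81.3 CPM in the SMARCB1 line and 56.1 and 46.6 CPM in the GFP line, a log2 fold change of 0.74 (SE 0.26, adjusted p = 0.151 in edgeR's test). In Dox it had 66.9 and 53.6 CPM against 45.4 and 36.1 CPM, at 0.41 (SE 0.26, adjusted p = 0.436 in edgeR's test). In CPM the lines did not overlap under either treatment, but these CPM are not corrected for composition. The TMM factors were 1.05 and 1.05 for SMARCB1 Dox and 0.872 and 1.05 for GFP Dox. Divided by these factors, the lines overlap under Dox. Neither difference passed the adjustment here. Blocked by replicate number, the difference under DMSO was 0.76 and passed (adjusted p = 0.0488 in edgeR's test). Without the block, the value under Dox was 0.15 without GFP Dox replicate 2, 0.24 without SMARCB1 Dox replicate 1 and 0.75 without GFP Dox replicate 1.

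SELENOH had 45.2 and 48.6 CPM in SMARCB1 Dox and 17.9 and 33.6 CPM in GFP Dox, at 0.77 (SE 0.34, adjusted p = 0.235 in edgeR's test). In DMSO its libraries overlapped, with 23.5 and 44.7 CPM against 21.2 and 24.3 CPM, at 0.68 (SE 0.33, adjusted p = 0.4 in edgeR's test). That value was 0.05 without SMARCB1 DMSO replicate 2 and 1.10 without replicate 1, and the value under Dox was 0.48 without GFP Dox replicate 1. Of its 366 coding bases, 52 are annotated to another gene as well. SEPHS2 and SELENOM under DMSO were at -0.46 (SE 0.29) and -0.53 (SE 0.36), with both SMARCB1 libraries below both GFP libraries. SEPHS2 was at -0.17 without SMARCB1 DMSO replicate 2 and at -0.81 without replicate 1, and SELENOM ranged from -0.72 to -0.37 over the libraries left out. PSTK under Dox was at 1.73 (SE 1.21), from 15 and 5 counts against 0 and 4, and at 0.82 without GFP Dox replicate 1. SEPHS1 under Dox was at 0.52 (SE 0.41). It ranged from 7.21 to 24.3 CPM within GFP Dox, and its difference was -0.03 without GFP Dox replicate 1 and 1.45, with an adjusted p of 0.0261 in edgeR's test, without GFP Dox replicate 2.

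Under DMSO, both libraries of the SMARCB1 line lay above both of the GFP line for 2 of 24 members (SELENOS and TRNAU1AP) and below for 6 (GPX3, MSRB1, SELENOM, SEPHS1, SEPHS2 and TXNRD1). Over all genes tested these shares were 18.5% and 26.9%. Under Dox they lay above for 7 (PSTK, SELENOH, SELENOS, SEPHS2, SEPSECS, TXNRD1 and TXNRD3) and below for 1 (GPX3), against 27.9% and 17.2% of all genes. These orders are again in CPM not corrected for composition, which matters for SELENOS under Dox. The best counted members had small differences between the lines: TXNRD1 had log2 fold changes of -0.13 under DMSO and 0.06 under Dox, and SELENOF of -0.08 and 0.08, each with an SE of 0.24.

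Neighbouring pathways were described in the same fit from lists of related genes, in which a few genes occur more than once. In both Dox comparisons and in the difference between them, 0 of the 85 listed genes tested were called by edgeR or by DESeq2. Selenium uptake and NRF2 targets had 1 gene each at an unadjusted p below 0.05 after SMARCB1 induction, release factors and nonsense-mediated decay had 1 after Dox in the GFP line, and the other lists had 0. Between the lines 5 of the 85 were called under DMSO and 6 under Dox, beside 5.29% and 6.55% of all genes, so the calls described next are about as frequent as in the whole table.

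Of the 11 tested genes of glutathione synthesis and reduction, 1 was called lower in the SMARCB1 line under each treatment. It was MGST1, a membrane-bound glutathione transferase that also reduces lipid peroxides. MGST1 had 0 counts in all 4 libraries of the SMARCB1 line, 465 and 370 in GFP DMSO and 158 and 98 in GFP Dox. It was at least 210-fold higher in the GFP line under DMSO and at least 111-fold higher under Dox (adjusted p = 4.82e-06 and 1.14e-05 in edgeR's quasi-likelihood test). The bounds were 63.4-fold without SMARCB1 DMSO replicate 2 and 38.4-fold without SMARCB1 Dox replicate 1, and 88.5-fold without GFP Dox replicate 1.

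Of the 13 thioredoxin and peroxiredoxin partners, 1 was called higher under each treatment, TXNIP, the protein that binds and inhibits thioredoxin. TXNIP had 84 and 285 counts in SMARCB1 DMSO and 3 and 5 in GFP DMSO, a log2 fold change of 5.86 (SE 0.61, adjusted p = 1.82e-05 in edgeR's test). Under Dox it had 222 and 241 counts against 2 and 0, a pooled ratio of 178 (95% exact binomial interval 48.9 to 1471, adjusted p = 1.41e-05 in edgeR's test). Without GFP Dox replicate 1 it was at least 57-fold higher in the SMARCB1 line, without GFP Dox replicate 2 the ratio was 92.2, and without SMARCB1 Dox replicate 1 it was 268.

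Of the 11 tested ferroptosis regulators other than GPX4, 1 was called higher under DMSO, and 2 higher and 1 lower under Dox. ACSL4, which loads polyunsaturated fatty acids into lipids, had 14.2 and 15.5 CPM in SMARCB1 DMSO and 0.833 and 1.64 CPM in GFP DMSO. Its log2 fold change was 3.63 (SE 0.48, adjusted p = 0.000206 in edgeR's test), and 4.30 under Dox (SE 0.57, adjusted p = 0.000219). SLC7A11, the cystine importer, was higher under Dox at 1.45 (SE 0.39, adjusted p = 0.0386 in edgeR's test), and is also the 1 call among the 5 tested genes of selenium uptake. GCH1, which starts tetrahydrobiopterin synthesis, was lower at -1.19 (SE 0.30, adjusted p = 0.0296 in edgeR's test). Both calls were lost without SMARCB1 Dox replicate 2 or without GFP Dox replicate 1, that of SLC7A11 also without SMARCB1 Dox replicate 1, with values of 1.07 to 1.61 for SLC7A11 and -0.86 and -1.02 for GCH1. They were also lost with library size alone as the scaling and in a fit of only the groups compared.

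Of the 17 tested NRF2 targets, 1 was called higher and 1 lower under DMSO and 2 higher under Dox. NQO1, a quinone reductase, had 887 ± 148 CPM in SMARCB1 DMSO and 409 ± 11.2 CPM in GFP DMSO (SD, n = 2), a log2 fold change of 1.19 (SE 0.26, adjusted p = 0.0135 in edgeR's test), and 0.94 under Dox (SE 0.26, adjusted p = 0.0477). All 8 libraries kept the lines apart for NQO1. The call under DMSO was lost without SMARCB1 DMSO replicate 2 (0.94) or either GFP DMSO library (1.23 and 1.15), and that under Dox without either SMARCB1 Dox library (0.82 and 1.05) or GFP Dox replicate 2 (0.72). The call under Dox was also lost with DESeq2's size factors in edgeR's fit and in a fit of only the groups compared. OSGIN1 was lower under DMSO at -2.86 (SE 0.72, adjusted p = 0.0291 in edgeR's test) from 3 and 6 counts against 35 and 61, and its call was lost without any 1 of the 4 libraries, at -3.11 to -2.55. The second call under Dox was SLC7A11 again.

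The remaining lists had no call by edgeR in either comparison of the lines. These were 4 tested cysteine homologues of selenoproteins, 4 genes that charge or modify the tRNA, 5 other SECIS-binding proteins, 18 release factors and factors of nonsense-mediated decay, and 9 partners of SELENOS and SELENOK in ER-associated degradation. Unadjusted p below 0.05 was found for 1 cysteine homologue under each treatment, and under Dox for 1 SECIS-binding protein and 2 degradation partners. Over all 11097 genes tested, 1546 under DMSO and 2074 under Dox had such a p in edgeR's test. DESeq2 called 1 gene of these lists, NCL (nucleolin, a SECIS-binding protein), at -1.02 under Dox (adjusted p = 0.0276 in DESeq2's Wald test). Its counts there were 58825 and 31422 against 80517 and 44860. Scaled to the library, these were 5156 and 5232 CPM in SMARCB1 Dox against 11613 and 6977 CPM in GFP Dox. The highest was GFP Dox replicate 1, the library with the most reads of multiple alignment.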

How the data were processed

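The authors isolated RNA on active ribosomes with RiboLace, aligned it with STAR to hg38 and counted it with HTSeq (intersection-strict, coding sequences, GENCODE 42). The deposited values are raw counts per gene and library. Handling of adapters, duplicates and strand is not given in the sources used here, so overlapping antisense genes cannot be told apart. Library sizes and tests do not include the 5 HTSeq summary rows.

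Symbols, coding lengths, selenocysteine codons and sequences came from GENCODE 44 on GRCh38, matched by gene ID without version. CPM were computed here from counts on genes. R 4.3.3 with edgeR 4.0.16 (filterByExpr by group, TMM, quasi-likelihood F-test, 1 term per group over all 8 libraries) tested 11097 genes, with Benjamini-Hochberg adjustment over all of them. Genes were called at an adjusted p below 0.05 at any fold change. The p-values rest on the spread between the 2 libraries of a group, estimated over all groups together and moderated across genes. This spread may be partly technical. DESeq2 1.42.0 and 7 further settings were alternatives, as was leaving out each library. The procedure was tested on simulated data.

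The 31 genes and the related lists were chosen with earlier results of these data known. Named genes are members called in a comparison, the 5 members with the smallest p in each, and, of the related lists, called genes. NCL, called by DESeq2 alone, was named after its values were seen. Exact copies of 28-base runs of each coding sequence were counted in GRCh38 on both strands.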

Additional observations from a re-analysis of the deposited data

How the results depend on the processing

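Of 430 recomputed log2 fold changes for 36 gene and comparison pairs, 23 lost the call, 2 gained it, and 4 changed sign or fell to 0.00. The others kept both their direction and their side of the threshold. GPX3 after SMARCB1 induction fell to 0.00 (0.00 to 5.58 over the libraries left out in turn). The changes of sign were SELENOO and SELENOM after Dox in the GFP line (-0.02 to 1.15 and -0.13 to 0.70), and SEPHS1 between the lines under Dox (-0.03 to 1.45). The number of members called between the lines was 0 instead of 1 under either treatment with at least 10 counts in every library, because GPX3 is then not tested. Under Dox it was 1 to 2 with a library left out, SEPHS1 being added without GFP Dox replicate 2. DESeq2 also called GCH1 under DMSO.

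For all genes, SMARCB1 Dox against DMSO gave 2 calls with all libraries, 36 with DESeq2, 46 without a filter, 1 with at least 10 counts in every library, 5 with only the groups compared, and 1 to 2 with a library left out. GFP Dox against DMSO gave 14 without a filter and 0 to 148 with a library left out, the highest without GFP Dox replicate 2. The difference between these effects gave 1 with DESeq2, 15 without a filter and 0 to 105 with a library left out. The lines under DMSO gave 304 with at least 10 counts in every library and 299 to 440 with a library left out, and under Dox 405 and 348 to 1661.

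The labels name nothing that a replicate number shares across groups. Deviations of same-numbered libraries correlated positively in all 6 pairs of groups, at 0.0454 to 0.28, above 0.1 in 5 of them. The rule applied here asks for all 6 above 0.1, so the block was kept as an alternative, and these values leave a shared batch possible. With the replicate number as a block, SMARCB1 Dox against DMSO gave 13 calls, and the lines under DMSO 2 members, SELENOS being added at 0.76. With lengths of the longest coding sequence instead of all coding bases, 18 of 22 levels moved by less than 1 SD over the 8 libraries. TXNRD1, SELENOF, GPX4 and TXNRD2 moved to 607, 324, 300 and 14.4 CPM per kilobase. The rank among the members changed for 12 of the 22, and SELENOW moved from rank 11 at 29.6 to rank 6 at 41.1 CPM per kilobase. The fit of only the groups compared was not run for the difference between effects, which needs all 4. Replicates of 2 limit what these libraries can show for changes near 2-fold.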
